A study of Homo sapiens with 24 samples.

Results

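Last introns, the introns that lie closest to the 3′ end of their gene, were followed in nuclear and cytoplasmic RNA of RKO cells with and without ablation of ERH. Each deposited intron table listed 233113 introns, of which 227775 were marked clean, meaning free of other annotated exons. Among the 12826 genes with 5 or more clean introns of over 120 and under 20000 bases, the intron nearest the 3′ end was taken, and it was kept where intron depth plus spliced reads averaged at least 20 over the 12 nuclear libraries. This left 7871 last introns of 7871 genes, set among 113264 introns of the same length range and read minimum. The member nearest the minimum had 20 reads and the intron nearest below it had 19.9, and the median over members was 215. Because introns were collected over all annotated transcripts, 5962 members were the final intron of the gene's canonical transcript in GENCODE v44 on GRCh38, 790 its second to last, and 785 were not an intron of that transcript. The position was coding for 6830, in the 3′ UTR for 217 and in the 5′ UTR for 35, and 716 were overlapped by another gene. The first intron of the same genes served for comparison and passed the same minimum in 6133 genes. It was also taken over all annotated transcripts, so in part of the genes it was not the first intron of the canonical transcript. Both introns were those of the canonical transcript in 2416 of the 5637 genes in which last and first intron are tested below.

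RKO is a human colon carcinoma cell line, used here as sorted cells with doxycycline-inducible Cas9 and a guide RNA that was made all the time. The tested guide sgERH cuts ERH, a small conserved protein bound to splicing and RNA export factors, and the control guide sgAAVS1 cuts a safe-harbour site in an intron of PPP1R12C. All groups received doxycycline at 100 ng/mL for 5 days, and then either cycloheximide (CHX, an inhibitor of translation, 25 µg/mL) or DMSO, its solvent, for 4 h. Cells were split into nucleus and cytoplasm, and polyadenylated RNA was read from both ends, with 3 libraries labelled biological replicates in each of the 8 groups (sgERH with CHX, sgERH with DMSO, sgAAVS1 with CHX and sgAAVS1 with DMSO, each as nucleus and as cytoplasm). P-values therefore measure the spread between these libraries, and the edited cells were a pool in which uncut cells could remain.

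As background, the last intron differs from internal introns in that its 3′ splice site and the polyadenylation signal together define the terminal exon, so that its removal and 3′ end formation are coupled. Splicing of most introns runs along with transcription, and an intron transcribed late has less time before the transcript is cleaved and released. Polyadenylated RNA that still holds an intron is commonly kept in the nucleus, and such transcripts that reach the cytoplasm can be removed by nonsense-mediated decay, a process that needs translation.

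Libraries held 27.8 M to 79.5 M transcript counts. ERH RNA itself averaged 73.1 ± 13.8 CPM (counts scaled to a common library total) in sgERH and 149 ± 10.7 CPM in sgAAVS1 cytoplasm with DMSO (SD, n = 3 each), a change of −1.03 ± 0.14 on the log2 scale (edgeR, adjusted p = 7.4e-05), and 12.9 ± 1.83 CPM against 17.98 ± 3.36 CPM in nuclei (−0.48 ± 0.16, adjusted p = 0.0226), so part of it remained. Of the epithelial markers, KRT8, KRT18 and EPCAM were detected in every library. EPCAM was low, at 0.621 to 5.60 CPM in nuclei and 2.68 to 10.6 CPM in cytoplasm. The collagen gene COL1A1 had 1.02 to 4.19 CPM in nuclei and 0 to 0.336 CPM in cytoplasm. 1 nuclear library stood apart from the others of its group, sgERH with CHX replicate 2, where the median retention of last introns was 0.0489 against 0.0666 and 0.0677 in the other 2, and counts of calls between nuclear CHX libraries are therefore also given without replicate 2. IRFinder, the program that made the tables, put a warning on 39.6% to 54.9% of the last introns in a library, and 1800 members carried none in any nuclear library.

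The splice sites of most of the last introns with the largest changes are shown so that the retention values below can be read beside their sequence. Each line holds the last 3 bases of the exon and the first 20 of the intron, 5′ to 3′ on the gene's strand in the reference genome GRCh38, with the first 5 intron bases in capitals. In 5 of these 8 introns with higher retention in sgERH nuclei with DMSO, the capitals read GTAAG, a run that can pair with the 5′ end of U1 small nuclear RNA.
TRNT1 (chr3:3147701-3147723, plus strand): gatGTAAGtatatactaggcttg
USP25 (chr21:15877989-15878011, plus strand): aacGTAAGtttaaacaatggtag
RAD50 (chr5:132592032-132592054, plus strand): gaaGTAAGttgcaacatttggag
CARNMT1 (chr9:74984887-74984909, minus strand): gagGTAAGaatggaataaaatat
SLC33A1 (chr3:155829668-155829690, minus strand): gagGTAAGtatgttttaatttta
BBS7 (chr4:121828126-121828148, minus strand): atgGTTAGtggaccattctagaa
STT3B (chr3:31633145-31633167, plus strand): aagGTGGGtgccaagtgaaggca
UGCG (chr9:111932357-111932379, plus strand): cagGTATGtggataggcatgaaa

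The same window is given for the 8 last introns with the largest decreases, of which 2 read GTAAG.
THRA (chr17:40088498-40088520, plus strand): cagGTACCtgctgattagtcggg
VIM (chr10:17236377-17236399, plus strand): cagGTTGGtatcttttaaggaaa
NCK1 (chr3:136946293-136946315, plus strand): tcgGTAAGttgattttcggaggt
PKD2 (chr4:88074957-88074979, plus strand): gagGTCAGtagtcatgagctgaa
POGLUT3 (chr11:108477587-108477609, minus strand): cagGTCAGttcagagtgtccgtc
TMEM106A (chr17:43217310-43217332, plus strand): ccaGTAAGtagagcttggagctc
EPHX1 (chr1:225844621-225844643, plus strand): gcgGTGAGcctggctgagccgag
SC5D (chr11:121306484-121306506, plus strand): aagGTAAAgtcatttgtggtgaa

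The 3′ splice sites of TRNT1 and USP25, which had higher retention, and of THRA and SC5D, which had lower retention, are shown as examples picked after their sequences were seen, as the last 25 intron bases, with AG in capitals, and 3 exon bases. The 20 bases before the AG held 11 C or T in TRNT1, 13 in USP25, 17 in THRA and 16 in SC5D. Other introns with higher retention held up to 19 (MBOAT2) and others with lower retention as few as 14 (TMEM106A), and the means were 14.7 over the 44 last introns called higher, 15.4 over the 368 called lower and 15.4 over those not called.
TRNT1 (chr3:3147881-3147908, plus strand): ctaaatgtttgattttgacacgtAGtct
USP25 (chr21:15878278-15878305, plus strand): tagatttaattgtttgtatttgcAGcac
THRA (chr17:40089181-40089208, plus strand): ccctcacgcccctcttccctcacAGacc
SC5D (chr11:121307032-121307059, plus strand): ctaattgtgtccttttctcctgcAGcgc

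Last introns had a lower median retention in sgERH than in sgAAVS1 nuclei, and a higher one than first introns in every nuclear group. The order of last and first introns was tested further on within genes, in nuclei with DMSO. There it turned when only exactly spliced reads were counted, but not among genes whose first and last introns were both those of the canonical transcript. The measure used is the IR ratio, in which intron depth is set over depth plus spliced reads, so that 0 means fully spliced and 1 fully retained. In bulk RNA a ratio between them cannot tell a share of cells from a share of the transcripts in every cell. In nuclei with DMSO, the median IR ratio over last introns was 0.0888, 0.0921 and 0.0925 in the sgERH libraries, against 0.116, 0.112 and 0.118 in the sgAAVS1 libraries. All sgERH libraries lay below all sgAAVS1 libraries, and the mean of the medians was 0.788 times as high. With CHX the medians were 0.0666, 0.0489 and 0.0677 in sgERH nuclei, against 0.106, 0.101 and 0.106 in sgAAVS1 nuclei, a ratio of 0.586, again without overlap. First introns of the same genes had medians of 0.0399, 0.0510 and 0.0489 in sgERH nuclei with DMSO, against 0.0592, 0.0626 and 0.0581 in sgAAVS1 nuclei. Their ratio of 0.777 was close to that of last introns. With CHX the first introns moved to a ratio of 0.483.

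**Figure D1:**
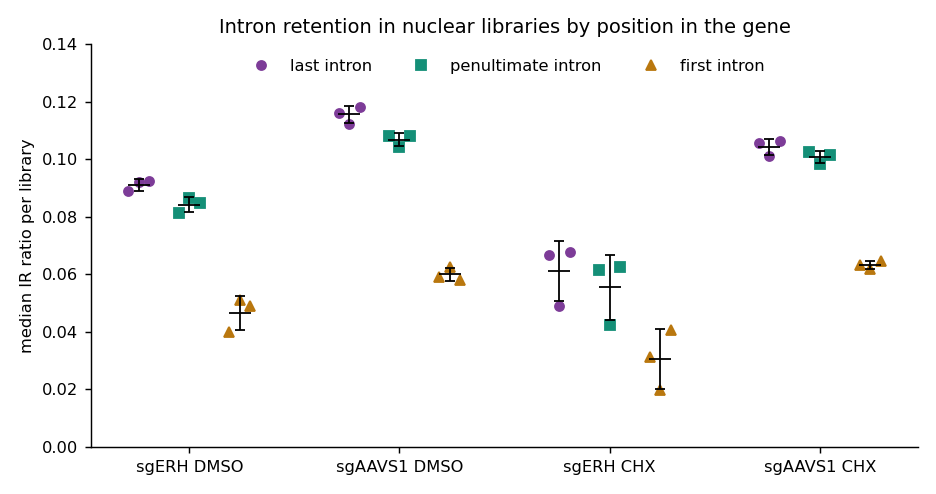
Median IR ratio (y axis, no unit) of last, second to last and first introns in each nuclear library, with sgERH left of sgAAVS1 and 1 point per library; black marks give the mean and SD of the 3 libraries of a group. Every sgERH library lies below every sgAAVS1 library of the same treatment, and sgERH CHX replicate 2 lies lowest, at 0.0489 for last introns.

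In terms of single introns, 47.3% of last introns had a mean IR ratio of 0.1 or more in sgERH nuclei with DMSO, against 55.4% in sgAAVS1 nuclei, and 348 against 531 reached 0.5. Last introns thus spread over the whole range within one condition. In sgAAVS1 nuclei with DMSO, 1955 of them (24.8%) stayed under 0.05. Of the 531 at 0.5 or above, 322 were the final intron of the canonical transcript (5.40% of such introns) and 146 were not in that transcript (18.6%). The 8 members with the largest ratio and enough reads, in NFYC, UBE2T, API5, PRPF19, ANKRD13A, ZC3H18, MYBBP1A and PSMD3, all had a mean ratio of 1, and none was an intron of the canonical transcript. In 16 members no spliced read was counted, and all 16 were outside the canonical transcript.

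Among canonical last introns with at least 100 spliced reads, chosen after their values were seen, ATG4B, a protease of autophagy, had IR ratios of 0.894, 0.889 and 0.921 in sgERH nuclei with DMSO, against 0.928, 0.919 and 0.952 in sgAAVS1 nuclei. The 2 groups overlapped, and the cytoplasm held far less of this intron, with 0.0526, 0.0220 and 0.0413 in sgERH and 0.0317, 0.0238 and 0.0220 in sgAAVS1 libraries. The last intron of CASP4, an inflammatory caspase, lies in the 3′ UTR (chr11:104942974-104944747) and had ratios of 0.747, 0.609 and 0.664 in sgERH nuclei, against 0.854, 0.839 and 0.852 in sgAAVS1 nuclei. These groups did not overlap, and retention fell by 1.44 ± 0.22 on the log2 scale (edgeR, adjusted p = 0.000955). The last intron of DOT1L, the H3K79 methyltransferase, had 0.860, 0.861 and 0.836 in sgERH nuclei, against 0.850, 0.841 and 0.868 in sgAAVS1 nuclei, which overlapped.

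Across genes, median retention was higher over the last introns of the transcript than near its start past the first intron. Over canonical transcripts with 8 or more introns, the median IR ratio in sgERH nuclei with DMSO was 0.0449 at the first intron, 0.0244 at the second, 0.0253 at the third and 0.0284 at the fourth, and then 0.0538, 0.0617, 0.0692 and 0.0855 over the last 4. The sgAAVS1 nuclei gave 0.0545, 0.0307, 0.0310 and 0.0357 at the first 4 introns and 0.0639, 0.0736, 0.0846 and 0.104 over the last 4. The profile was therefore U-shaped in both guides, with the sgERH line below the sgAAVS1 line at all 8 of these positions but similar in shape. Within genes, the last intron was also tested against the second to last intron in sgAAVS1 nuclei with DMSO. It held more reads per spliced read in 1963 of 7396 genes (26.5%) and fewer in 1793 (24.2%), with a median log2 difference of 0.0037. The second to last intron was that with the next 3′ end over all annotated transcripts, so it could be another form of the last intron. Canonical last and second to last introns were not tested against each other.

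**Figure D2:**
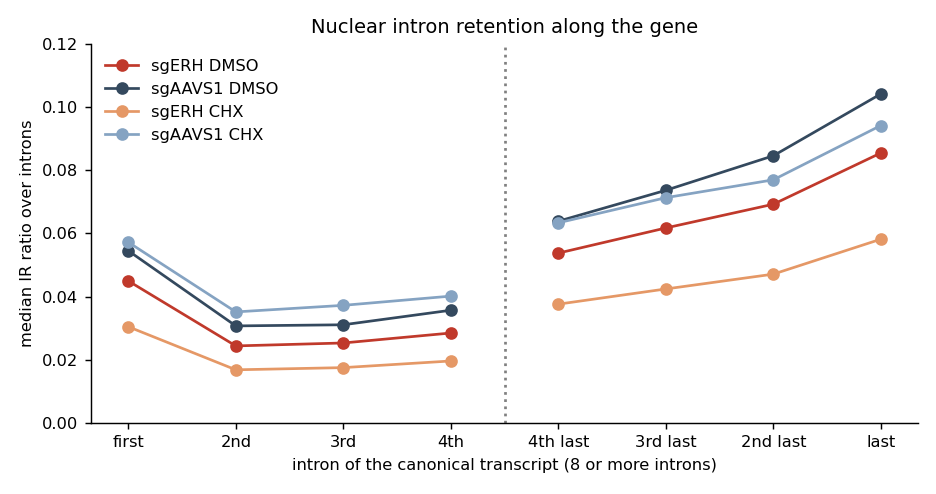
Median IR ratio (y axis) by intron position, counted from the 5′ end and from the 3′ end of canonical transcripts with 8 or more introns, in the 4 nuclear groups. In sgERH nuclei with DMSO the median was 0.0244 at the second intron and 0.0855 at the last, against 0.0307 and 0.104 in sgAAVS1 nuclei.

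Retention also differed by the location of the intron. Last introns in the 3′ UTR had a median of group mean IR ratios of 0.153 in sgERH nuclei with DMSO, against 0.193 in sgAAVS1 nuclei, while coding last introns had 0.0879 against 0.111. First introns in the 5′ UTR had 0.0740 against 0.0919. Last introns were also shorter, with a median length of 1471 bases against 3701 for first introns and 1834 over all introns of the length range, and their median GC content was 44.6%, against 46.3% and 43.2%. Within classes of like length the order stayed the same. In sgAAVS1 nuclei with DMSO, last introns of 2000 to under 5000 bases had a median of 0.127 against 0.0568 for first introns, and those under 500 bases had 0.119 against 0.107.

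Testing the last against the first intron within each gene used 5637 genes in which both introns had enough reads. In sgAAVS1 nuclei with DMSO the last intron held more reads per spliced read in 2114 genes (37.5% of those tested) and fewer in 1443 (25.6%), with a median log2 difference of 0.45 (edgeR, adjusted p up to 0.05 and a difference of at least 1). In sgERH nuclei the counts were 2117 (37.6%) and 1501 (26.6%), with the same median of 0.45. This order depended on how spliced reads were counted. With only reads spliced at exactly the 2 annotated ends in the denominator, the median in sgAAVS1 nuclei turned to −0.39 and the counts to 1736 above and 2180 below. In sgERH nuclei it turned to −0.43. Among the 2416 genes whose first and last intron were both those of the canonical transcript, the sgAAVS1 median was 0.41, or 0.17 with exact reads. The sgERH median with exact reads was 0.13 there.

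The difference in sgERH effect between last and first intron was small across genes. In nuclei with DMSO it passed the test as positive in 19 genes (0.337%) and as negative in 24 (0.426%), with a median of −0.02, and without any one replicate number the counts fell to between 2 and 3 and between 1 and 9. TRNT1, which adds the CCA end to tRNAs, had a last intron that rose and a first intron that averaged 0.100 in sgERH and 0.179 in sgAAVS1 nuclei, a difference in effect of 4.58 ± 0.42 (adjusted p = 2.3e-08). ZNHIT6, a box C/D snoRNP assembly factor, had a difference of 4.92 ± 1.01 (adjusted p = 0.0121), of which most came from its first intron, at 0.0035 in sgERH and 0.0432 in sgAAVS1 nuclei. In the other direction stood HNRNPU, a nuclear RNA-binding protein, at −1.85 ± 0.25 (adjusted p = 8.1e-05) and NCAPG, a condensin subunit, at −3.49 ± 0.81 (adjusted p = 0.0254). In both genes the last intron fell in sgERH nuclei while the first intron had the larger mean ratio there, 0.0449 against 0.0315 for HNRNPU and 0.135 against 0.0349 for NCAPG.

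The guide comparison in nuclei with DMSO called 44 last introns higher in sgERH (0.573% of 7675 tested, against 1.21% of all 121731 introns tested) and 368 lower (4.79%, against 3.19% of all). Second to last introns gave 75 higher (0.999% of 7508 tested) and 385 lower (5.13%), with a median change of −0.41. The larger share of falls was therefore shared with second to last introns, which were taken over all annotated transcripts. A call needed an edgeR adjusted p of at most 0.05, a change of at least 1 on the log2 scale in depth per spliced read, and a mean IR ratio reaching 0.05 in whichever group retained more. The median change was −0.40 over last introns and −0.37 over all introns, so the whole distribution was shifted. After TMM centring, which takes that shift out (median over all introns 0.01), 102 last introns were higher and 62 lower, against 2318 and 780 over all introns. The balance of calls thus turned, for last introns and for all introns. All 44 introns called higher at first were among the 102, and all 62 were among the 368. By plain separation of the 3 sgERH from the 3 sgAAVS1 values, 348 last introns (4.53%) lay wholly above and 2572 (33.5%) wholly below, against 6.29% and 26.5% over all introns. Leaving out a replicate number lowered the counts, to 13, 30 and 9 higher and 69, 270 and 48 lower without replicates 1, 2 and 3 in turn. Of the 37 introns that the naming rules picked and that were called in this comparison, 9 were called in all 3 of these fits and 9 in none.

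**Figure D3:**
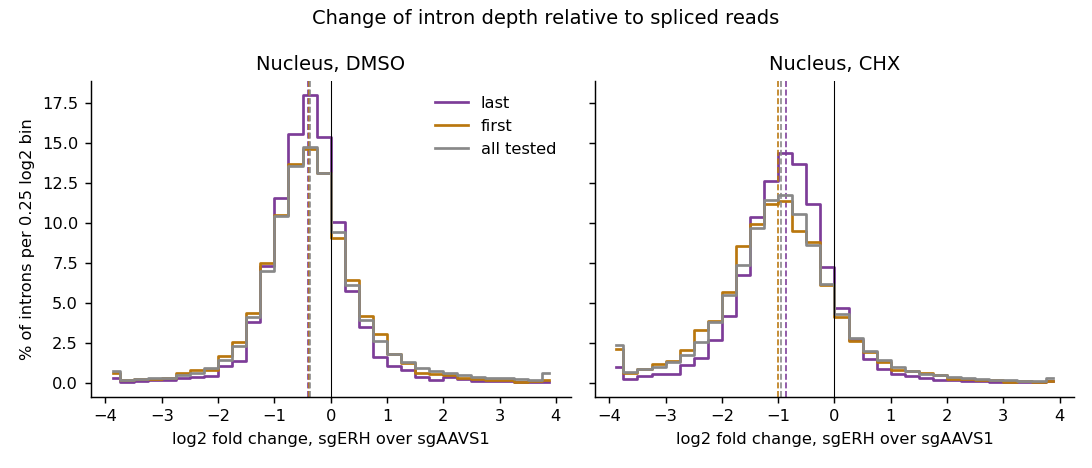
Percent of introns per bin of 0.25 (y axis) by log2 fold change of depth per spliced read, sgERH over sgAAVS1 (x axis), for last, first and all tested introns in nuclei with DMSO and with CHX, with dashed lines at the medians. The distributions are shifted below 0 together, with medians of −0.40 for last, −0.39 for first and −0.37 for all introns with DMSO.

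Of the introns that rose, that of TRNT1 did so in both fractions. This last intron (chr3:3147704-3147905, intron 7 of 7, coding) had IR ratios of 0.274, 0.360 and 0.337 in sgERH nuclei with DMSO, against 0.0410, 0.0292 and 0.0420 in sgAAVS1 nuclei. The groups did not overlap, and the rise was 3.61 ± 0.24 on the log2 scale (edgeR, adjusted p = 4.08e-07), called also without each replicate number. In the cytoplasm this intron rose too, by 3.66 ± 0.41 (adjusted p = 0.000131).

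The last intron of RAD50, a subunit of the MRE11 DNA break repair complex, is not an intron of the canonical transcript (chr5:132592035-132592763) and is overlapped by another gene. It was taken as the 3′-most clean intron of the length range, and whether other introns of RAD50 lie further 3′ was not checked. It had ratios of 0.401, 0.434 and 0.460 in sgERH nuclei with DMSO, against 0, 0.0572 and 0.0208 in sgAAVS1 nuclei, a rise of 4.82 ± 0.62 (adjusted p = 0.000276) that was called without each replicate number. With CHX the sgERH values were 0.438, 0.154 and 0.305 and the sgAAVS1 values 0.366, 0.274 and 0.287, which overlapped. All 12 nuclear libraries carried an IRFinder warning at this intron.

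USP25, a ubiquitin-specific protease, had 0.0675, 0.0552 and 0.0506 in sgERH nuclei at its last intron (chr21:15877992-15878302, intron 25 of 25), and 0 in all 3 sgAAVS1 libraries with DMSO. Set against a floor of 3 counts over the sgAAVS1 group, depth per spliced read was at least 9-fold higher in sgERH (adjusted p = 0.00917), and no fit with a replicate number left out kept the call. Next came the carnosine N-methyltransferase gene CARNMT1 with 0.198, 0.264 and 0.196 in sgERH, against 0.0499, 0.0344 and 0.0147 in sgAAVS1 nuclei, a rise of 2.87 ± 0.43 (adjusted p = 0.000831). The ratios of SLC33A1, an acetyl-CoA transporter of the endoplasmic reticulum, were 0.307, 0.210 and 0.280 in sgERH, against 0.0693, 0.0334 and 0.0557 in sgAAVS1 nuclei, a rise of 2.72 ± 0.36 (adjusted p = 0.00033). Both genes had groups that stayed apart, and both lost the call when boundary reads replaced the intron depth.

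For STT3B, a catalytic subunit of the oligosaccharyltransferase, the last intron had 0.146, 0.128 and 0.124 in sgERH, against 0.0329, 0.0317 and 0.0217 in sgAAVS1 nuclei, a rise of 2.33 ± 0.27 (adjusted p = 0.000119), called without each replicate number. UGCG, glucosylceramide synthase, had 0.287, 0.275 and 0.334 in sgERH, against 0.0639, 0.101 and 0.0804 in sgAAVS1 nuclei, a rise of 2.26 ± 0.37 (adjusted p = 0.00169). BBS7, a BBSome subunit, had 0.528, 0.533 and 0.567 in sgERH, against 0.0761, 0.180 and 0.230 in sgAAVS1 nuclei, a rise of 2.68 ± 0.53 (adjusted p = 0.00687). In none of these genes did a sgERH library reach down to a sgAAVS1 library. The rule for named introns also gave UBXN2B, a p97 cofactor, at 2.37 ± 0.41, and MBOAT2, a lysophospholipid acyltransferase, at 0.050, 0.0568 and 0.0859 in sgERH, against 0, 0.00537 and 0 in sgAAVS1 nuclei, with too few reads of depth in sgAAVS1 for a fold.

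**Figure D4:**
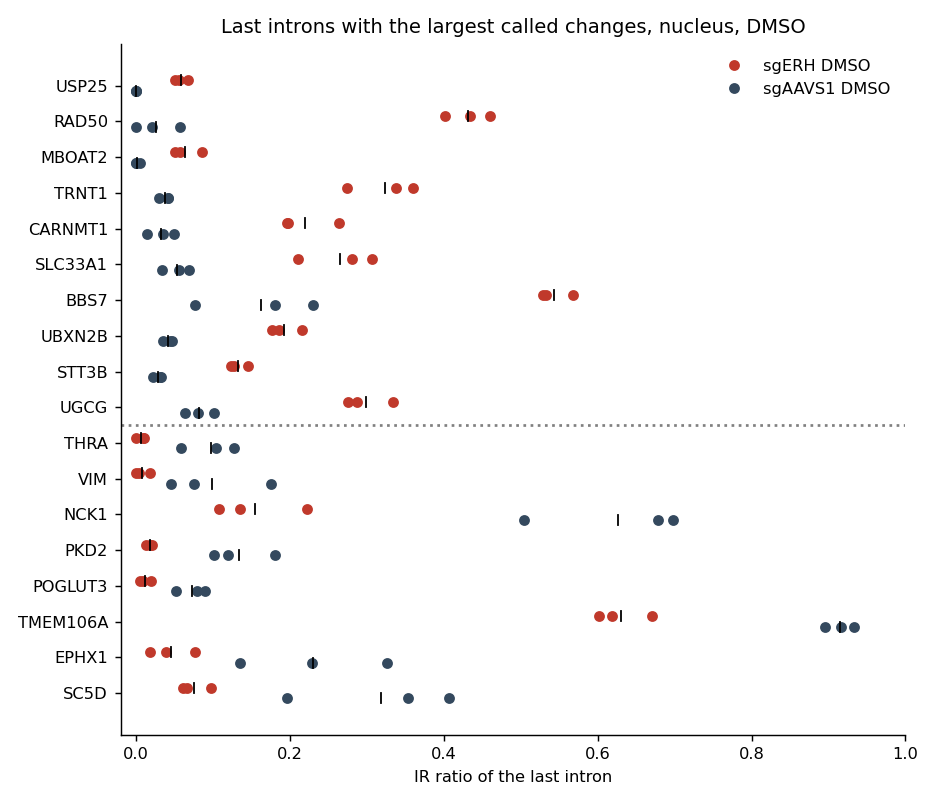
IR ratio (x axis) of the last introns with the largest called changes in each nuclear library with DMSO, 1 gene per line, with sgERH points above sgAAVS1 points and a black tick at each group mean; genes above the dotted line rose and those below it fell. The TRNT1 values are 0.274 to 0.360 in sgERH and 0.0292 to 0.0420 in sgAAVS1, and the NCK1 values are 0.107 to 0.222 in sgERH and 0.504 to 0.698 in sgAAVS1.

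Among the introns that fell was that of NCK1, an SH2 and SH3 adaptor. It (chr3:136946296-136948258, intron 3 of 3, overlapped by another gene) had IR ratios of 0.107, 0.222 and 0.135 in sgERH nuclei with DMSO, against 0.504, 0.679 and 0.698 in sgAAVS1 nuclei, and fell by 3.22 ± 0.41 on the log2 scale (adjusted p = 0.000249). PKD2, the calcium channel polycystin-2, had 0.0132, 0.0185 and 0.0211 in sgERH, against 0.120, 0.181 and 0.101 in sgAAVS1 nuclei, a change of −3.03 ± 0.44 (adjusted p = 0.000705). Both falls were called without each replicate number and had no overlap between groups. TMEM106A had 0.618, 0.602 and 0.671 in sgERH, against 0.933, 0.916 and 0.896 in sgAAVS1 nuclei (−2.63 ± 0.67, adjusted p = 0.029). SC5D, a sterol desaturase of cholesterol synthesis, had 0.0980, 0.0667 and 0.0613 in sgERH, against 0.196, 0.354 and 0.406 in sgAAVS1 nuclei (−2.51 ± 0.44, adjusted p = 0.00292). EPHX1, microsomal epoxide hydrolase, changed by −2.62 ± 0.63 (adjusted p = 0.0206). None of the 3 fits without a replicate number called TMEM106A. THRA, VIM and POGLUT3 were also called lower in the full set alone, with too few reads of depth in sgERH for a fold. THRA, a thyroid hormone receptor, had 0, 0.00964 and 0.0085 in sgERH, against 0.104, 0.128 and 0.0589 in sgAAVS1 nuclei. TMM centring ended the calls of TMEM106A, EPHX1, VIM and POGLUT3.

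On a list of genes drawn mostly from the study, the last introns of JAK2, JAK1, IFNGR1, IFNGR2, IRF1, GADD45A, HSPA4L and PIK3C2A were members. None of these was called. RAD50, for which the study lists intron retention primers, was not on this list and was called higher, as given above. TOP2B and HEATR1, with such primers too, were also not on it. The retention that the study reported in nuclear JAK2 RNA lay at earlier introns, which were not members, so the JAK2 values here do not bear on it. The study also reported retained introns in PIK3C2A and HSPA4L. Its text does not number them, so the last introns of these genes cannot be set against that report. PIK3C2A, a class II phosphoinositide 3-kinase, passed the p and the fold (edgeR, adjusted p = 0.0075) with IR ratios of 0.00127, 0.000775 and 0.000644 in sgERH nuclei with DMSO, against 0.0178, 0.00715 and 0.0245 in sgAAVS1 nuclei. These groups did not overlap, but both lay under the ratio of 0.05 that a call needs, and sgERH had too few reads of depth for a fold. The last intron of JAK2, the kinase of interferon-gamma signalling, had 0.0574, 0.00448 and 0.0266 in sgERH nuclei with DMSO, against 0.0522, 0.0581 and 0 in sgAAVS1 nuclei, a difference of −0.66 ± 0.92 (adjusted p = 0.738) with full overlap. GADD45A, a stress-induced regulator, had 0.300, 0.317 and 0.327 in sgERH, against 0.379, 0.370 and 0.398 in sgAAVS1 nuclei (−0.43 ± 0.15, adjusted p = 0.101). IFNGR2, a chain of the interferon-gamma receptor, had 0.154, 0.160 and 0.163 in sgERH, against 0.187, 0.199 and 0.216 in sgAAVS1 nuclei (−0.41 ± 0.27, adjusted p = 0.419). The values of GADD45A and IFNGR2 did not overlap but lay near the median shift of −0.40. ERH, MYC and MAT2A had no member.

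Grouped by role, the last introns of cytosolic ribosomal protein genes were lower in sgERH nuclei with DMSO in 16 of the 27 tested and higher in none, with a median of −1.23 against −0.40 over all last introns. With TMM centring 5 were lower and none higher, with a median of −0.85, so the direction held while most calls were lost, and 12 to 14 were lower without a replicate number. Among the 13 that are final introns of the canonical transcript, 7 were lower and the median was −1.18. RPS14, of the small subunit, had 0.0778, 0.0874 and 0.0805 in sgERH, against 0.210, 0.183 and 0.202 in sgAAVS1 nuclei (−1.47 ± 0.15, adjusted p = 3.9e-05). RPLP0, the stalk protein, had 0.0361, 0.0397 and 0.0418 in sgERH, against 0.102, 0.0863 and 0.0894 in sgAAVS1 nuclei (−1.32 ± 0.14, adjusted p = 4.35e-05). Both had well separated groups. RPL31 and RPS15 were also called lower, but their last introns are not canonical and only 0.0566% and 0.369% of their spliced reads used exactly these ends. With exact reads RPL31 turned to 1.48.

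Genes of DNA repair had 2 last introns higher and 4 lower of 60 tested (median −0.21), and those of DNA replication 0 and 1 of 47 (−0.44). ATR, the replication stress kinase, had 0.0768, 0.0459 and 0.0694 in sgERH, against 0.229, 0.269 and 0.271 in sgAAVS1 nuclei (−2.36 ± 0.27, adjusted p = 9.04e-05). Its groups did not overlap, while RAD50 of the same list rose. Over all last introns the shares were 0.573% higher and 4.79% lower, beside which the small counts of these lists stand, and without replicate 3 the repair list had 1 higher and 1 lower. ATRIP, the partner of ATR, and BLM, a RecQ helicase, were also called lower, and POLD2, a subunit of DNA polymerase delta, was lower at −1.11 ± 0.20 (adjusted p = 0.00427) in an intron outside the canonical transcript.

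Of the mitosis and centrosome genes, 1 was higher and 4 lower of 63 (median −0.27), and 0 and 1, 0 and 2, and 0 and 0 without replicates 1, 2 and 3 in turn. SMC2, a condensin subunit, had 0.0857, 0.0718 and 0.0934 in sgERH, against 0.0422, 0.0302 and 0.0461 in sgAAVS1 nuclei (1.16 ± 0.32, adjusted p = 0.0433), whereas NCAPG of the same complex had 0.228, 0.229 and 0.166 against 0.401, 0.400 and 0.439 (−1.44 ± 0.22, adjusted p = 0.000905). Splicing factors and kinases gave 2 higher and 2 lower of 59 (median −0.22), and 0 and 1, 1 and 2, and 1 and 1 in the same fits. SF3B1, of the U2 snRNP, had 0.0860, 0.0737 and 0.0639 in sgERH, against 0.0330, 0.0317 and 0.0501 in sgAAVS1 nuclei (1.02 ± 0.25, adjusted p = 0.0242), and TIA1 changed by 1.14 ± 0.23 (adjusted p = 0.0082). HNRNPU had 0.0408, 0.0425 and 0.0420 in sgERH, against 0.106, 0.0928 and 0.0957 in sgAAVS1 nuclei (−1.32 ± 0.18, adjusted p = 0.000345), and SNRPA of the U1 snRNP changed by −1.06 ± 0.22 (adjusted p = 0.00917).

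The remaining lists had medians near that of all last introns, and none of the 3 kept a call without replicate 3. For 3′ end formation, 0 were higher and 1 was lower of 24 (SCAF4, median −0.43). For mRNA export, the exon junction complex and the exosome, 0 were higher and 2 lower of 32 (DDX39A and MAGOH, median −0.50). For interferon and JAK-STAT signalling, 1 was higher and 1 lower of 33 (median −0.41). PARP14 had 0.174, 0.114 and 0.140 in sgERH, against 0.0544, 0.0695 and 0.0628 in sgAAVS1 nuclei (1.32 ± 0.37, adjusted p = 0.0439), and PTPN1, a phosphatase of JAK kinases, had 0.331, 0.353 and 0.340 against 0.547, 0.491 and 0.605 (−1.22 ± 0.19, adjusted p = 0.00138). After TMM centring the medians of the DNA repair, mitosis and splicing lists turned to 0.17, 0.11 and 0.16, so no direction is given for them, and the calls of POLD2, TPX2, HNRNPU, SNRPA, SCAF4, DDX39A, MAGOH and PTPN1 were lost.

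The last introns that rose were AT-rich and short. Their median GC content was 35.5%, against 42.3% for those that fell and 44.9% for those not called, and their median length was 948.5 bases, against 1386 and 1460. The share called higher was 2.06% at a GC content under 35%, 0.917% at 35 to 40%, 0.462% at 40 to 45%, 0.0864% at 45 to 50%, 0 at 50 to 55% and 0.245% above. The share called lower moved far less, between 3.93% and 6.55%. A low GC content of risen introns was not particular to last introns: over all introns tested, the median GC content was 35.5% for those higher and 44.6% for those lower. First introns had few calls and no steady fall. Their share called higher was 1.20% (2 of 167) under 35% GC, then 0.148%, 0.454%, 0.183%, 0.253% and 0.411% in the classes above.

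**Figure D5:**
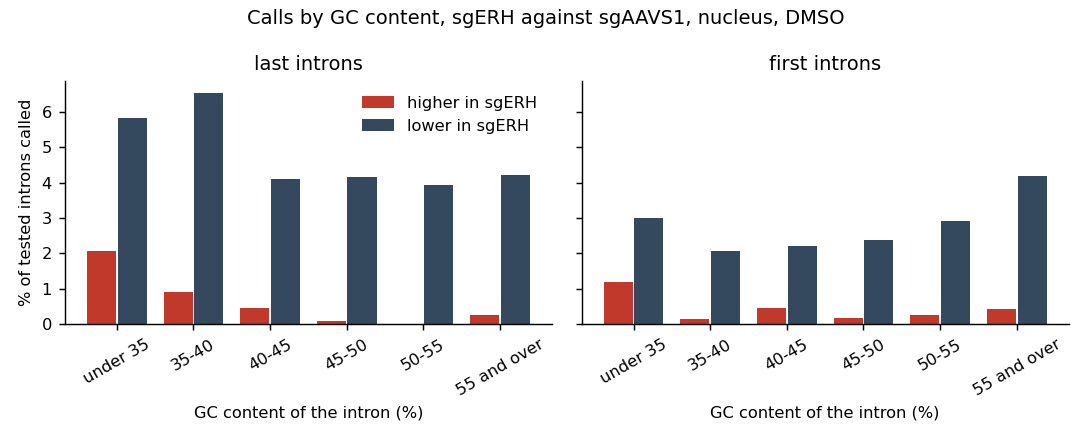
Share of tested introns called higher and lower in sgERH nuclei with DMSO (y axis, percent) by GC content of the intron (x axis, percent), for last introns and for first introns. Among last introns the share called higher is 2.06% under 35% GC and 0.0864% at 45 to 50% GC. Among first introns it is 1.20% (2 of 167), 0.183% at 45 to 50% GC and 0.411% at 55% and over.

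At the 5′ splice site, the first 5 intron bases GTAAG, read on the gene's strand at that place only, were present in 25 of the 44 introns that rose (56.8%), against 28.5% of those that fell and 28.6% of those not called. Over all last introns the share was 29.1%, over first introns 20.2% and over all introns of the length range 26.9%. Among all introns tested, those that rose had it in 38.6%, those that fell in 24.4% and the rest in 25.8%. The 20 bases before the AG held 11 T on average in last introns that rose, 9.20 in those that fell and 9.17 in the rest. Donors began with GT in 7807 of the 7871 last introns and with GC in 56, and 7862 ended with AG.

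The gap between the guides was wider with CHX. In nuclei with CHX, 26 last introns were higher in sgERH (0.751% of all introns tested were) and 1864 lower (19.5% of all), with a median of −0.86 against −0.96 over all introns and −1.01 over first introns. Second to last introns gave 28 higher and 1917 lower of 7508 tested, with a median of −0.92. After TMM centring 147 last introns were higher and 140 lower, with the median over all introns still at −0.15. Without replicate 2, the number of the library that stood apart, 17 last introns were higher and 999 lower. Of the 44 introns higher with DMSO, 13 were also higher with CHX (29.5% of 44, 50% of 26), and of the 368 lower, 257 were also lower (69.8% of 368, 13.8% of 1864). Without replicate 2 these shared counts were 9 (30% of 30, 52.9% of 17) and 156 (57.8% of 270, 15.6% of 999), without replicate 1 they were 2 and 43, and without replicate 3 they were 2 and 36. TRNT1 had 0.339, 0.291 and 0.329 in sgERH nuclei with CHX, against 0.127, 0.113 and 0.135 in sgAAVS1 nuclei (1.72 ± 0.21, adjusted p = 7.3e-05). USP25 had 0.0316, 0.0847 and 0.131 against 0, 0.00757 and 0.00803 (adjusted p = 0.00136), called without each replicate number. DDX19B, an RNA export helicase, had 0.0521, 0.0460 and 0.0708 against 0.0102, 0.0096 and 0.0129 (2.55 ± 0.69, adjusted p = 0.013). The list of mRNA export, exon junction and exosome genes had 14 of 32 last introns lower, among them UPF1, UPF2, SMG5 and SMG6 of nonsense-mediated decay, with a median of −1.06, or −0.23 with 1 lower after centring. Without replicates 1, 2 and 3 in turn, 8, 8 and 7 of the 32 were lower.

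Without ERH ablation, the median effect of CHX was lower for last than for first introns. In sgAAVS1 nuclei, CHX against DMSO gave 263 last introns higher (5.63% of all introns tested were) and 534 lower (4.49% of all), with a median of −0.15, while the median was 0.01 over all introns and 0.02 over first introns, where 269 were higher and 203 lower. Second to last introns lay near the last ones, with a median of −0.11 and 320 higher and 502 lower of 7508 tested. In the within-gene test, the effect of CHX on the last intron was more positive than that on the first in 151 genes (2.68%) and more negative in 380 (6.74%), with a median difference of −0.14. Those counts were 36 and 139 without replicate 1, 74 and 240 without replicate 2, and 38 and 141 without replicate 3. Against the second to last intron, the CHX effect on the last was more positive in 116 of 7396 genes and more negative in 147. The median difference there was −0.01. The change in sgERH nuclei with CHX was less negative or more positive at the last than at the first intron in 87 genes (1.54%) and the reverse in 43 (0.763%), with a median difference of 0.15. Here the counts were 5 and 7, 24 and 17, and 7 and 7 without replicates 1, 2 and 3 in turn, so the balance of calls rested on the full set of libraries. SLC27A1, a fatty acid transporter, had 0.00307, 0.00205 and 0 in sgAAVS1 nuclei with CHX, against 0.137, 0.123 and 0.137 with DMSO. The drop was at least 5.98-fold against the floor of 3 counts (adjusted p = 0.00181). RAD50 rose with CHX, with the sgAAVS1 values given above (4.03 ± 0.61, adjusted p = 0.000471). Ribosomal protein genes had 13 of 27 lower and none higher with a median of −1.21, and 15 lower after centring.

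In the cytoplasm almost all last introns were spliced out, and 4070 had enough reads to be tested. The median IR ratio was 0.00121, 0.000522 and 0.00149 in sgERH with DMSO, against 0, 0.000561 and 0.000619 in sgAAVS1 cytoplasm, which overlapped, and 249 last introns (3.16%) had a mean ratio of at least 0.1 in sgERH, against 225 (2.86%) in sgAAVS1 cytoplasm. The median guide effect here was above 0. With DMSO, 34 last introns were higher in sgERH (1.48% of all introns tested were) and 13 lower (0.126% of all), with a median of 0.40 against 0.57 over all and 0.72 over first introns. After TMM centring 24 were higher and 44 lower, so the balance of calls turned. With CHX, 18 were higher (0.618% of all) and 7 lower (0.146% of all), with a median of 0.29 over last and 0.29 over all introns.

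RAD50 had 0.140, 0.0999 and 0.159 in sgERH cytoplasm with DMSO and 0 in all 3 sgAAVS1 libraries, which makes depth per spliced read at least 35.9-fold higher against the floor (adjusted p = 0.00115, called without each replicate number). In all, 9 last introns were higher in both fractions with DMSO (among them METTL6, PANK3, RAD50, TMEM168, TRMT61B, TRNT1, TTN and UNC50), which is 20.5% of the 44 and 26.5% of the 34. Of the 44, only 38 had enough reads to be tested in the cytoplasm. CARS1, cysteinyl-tRNA synthetase, had 0.0346, 0.0256 and 0.0215 in sgERH, against 0.131, 0.136 and 0.152 in sgAAVS1 cytoplasm (−2.46 ± 0.30, adjusted p = 0.000265). TSPAN33, a tetraspanin, had 0.0284, 0.0184 and 0.0212 against 0.0792, 0.0764 and 0.122 (−2.08 ± 0.30, adjusted p = 0.000933). Neither pair of groups overlapped, and CARS1 carried an IRFinder warning in all 12 cytoplasmic libraries.

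CHX against DMSO in sgAAVS1 cytoplasm gave 12 last introns higher (0.903% of all introns tested were) and 71 lower (1.26% of all), with a median of −0.36 against 0.01 over all and 0.14 over first introns. For second to last introns the median was −0.20, with 16 higher and 54 lower of 3821 tested. EHD1, an endocytic recycling ATPase, had 0.0848, 0.0905 and 0.0963 with CHX, against 0.00433, 0.00346 and 0.000953 with DMSO (4.97 ± 0.36, adjusted p = 2.78e-06), called without each replicate number. TANGO2 had 0.00211, 0.00521 and 0.00362 with CHX, against 0.0777, 0.0445 and 0.0735 with DMSO (adjusted p = 0.000139), on 3 summed reads with CHX. IRFinder warnings stood on EHD1 in all 12 cytoplasmic libraries.

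Whether the guide effect differed between CHX and DMSO was tested as an interaction. In nuclei 0 last introns had a more positive effect with CHX (0.000821% of all introns tested had) and 20 a more negative one (0.311% of all), while 1163 had an unadjusted p under 0.05 (edgeR), and DESeq2 gave 0 and 27. The median was −0.46 over last and −0.60 over all introns. In the cytoplasm 2 were more positive (0.00653% of all) and 0 more negative (0.0174% of all), beside 235 at an unadjusted p under 0.05 and 0 in either direction with DESeq2. None of these introns was called once any replicate number was left out.

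HNRNPDL, a nuclear RNA-binding protein, had 0.124, 0.116 and 0.139 in sgERH nuclei with CHX, against 0.374, 0.369 and 0.366 in sgAAVS1 nuclei with CHX, whereas with DMSO it had 0.171, 0.159 and 0.173 in sgERH and 0.203, 0.204 and 0.184 in sgAAVS1 nuclei. The gap between the guides thus stood mostly with CHX (interaction −1.74, adjusted p = 0.000822). NCL, the nucleolar protein nucleolin, had 0.129, 0.0967 and 0.158 in sgERH with CHX, against 0.400, 0.390 and 0.408 in sgAAVS1, and with DMSO 0.0762, 0.0865 and 0.0832 against 0.122, 0.130 and 0.158. SETD6, a lysine methyltransferase, had 0.237, 0.251 and 0.289 in sgERH with CHX, against 0.561, 0.558 and 0.536 in sgAAVS1, and with DMSO 0.153, 0.150 and 0.142 against 0.121, 0.136 and 0.115. In these 3 genes CHX went with more retention in sgAAVS1 nuclei. In SUV39H1, an H3K9 methyltransferase, the sgERH libraries had 0.149, 0.231 and 0.171 with CHX, against 0.474, 0.517 and 0.477 in sgAAVS1, and with DMSO 0.615, 0.701 and 0.663 against 0.527, 0.529 and 0.402. Here, as in SETD6, the order of the guides differed between the treatments.

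Finally, the RNA level of the genes themselves was compared, as summed transcript counts. In the cytoplasm with DMSO, 212 of 7827 genes with a last intron here were higher in sgERH (9.2% of all genes tested were) and 203 lower (2.14% of all). In the nucleus 146 of 7830 were higher (4.78% of all) and 107 lower (1.71% of all). Of the 44 genes whose last intron was higher in sgERH nuclei, 7 were lower and 1 was higher in the cytoplasm (median −0.40, against −0.10 over all genes with a last intron), and 2 were lower and 0 higher in the nucleus (median −0.25). RAD50 and CARNMT1 were among the 7, at −1.41 ± 0.06 and −1.02 ± 0.08 in the cytoplasm. Of the 367 genes tested whose last intron was lower, 10 were lower and 6 higher in the cytoplasm (median −0.13). ATR was among these 10, at −1.27 ± 0.09. Since RNA levels and intron reads come from the same libraries, these values are not independent of each other.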

How the data were processed

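The authors trimmed reads with fastp 0.23.4, aligned them with STAR to GRCh38 with Ensembl annotation and used IRFinder-S for introns and salmon for transcripts. The tables of introns hold, for each of 24 libraries, the intron coverage (a trimmed mean signal, not scaled to library size), counts of reads spliced at each end, at both ends exactly or running across each boundary, and the IR ratio as a fraction, all as deposited by the authors. The deposited expected counts of transcripts were summed per gene and rounded. Deposited TPM values and transcript lengths were not used here. The members, gene lists and rules were chosen with earlier results of these data known.

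Where several annotated introns ended at the same place, in 1929 genes, the canonical one and otherwise the shortest was taken. Depth was rounded, and depth and spliced reads (the larger of both ends) of each library entered edgeR 4.0.16 (R 4.3.3, limma 3.58.1) as 2 columns with a library intercept, a read-type coefficient per group and a quasi-likelihood test with Benjamini-Hochberg adjustment over all clean introns of a fraction with a mean of 10 reads and a group depth of 1. SE was taken as the size of the log2 change over √F. Last minus first intron was tested the same way with 4 columns per library. Gene counts went through filterByExpr and TMM. No pair of libraries was identical (0 found).

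Named introns were first those of a list of genes drawn mostly from the study. To these came the 10 largest called increases and 8 largest decreases in nuclei with DMSO at 50 or more reads. Each other guide comparison gave 3 and 2, and CHX against DMSO 3 and 3. The 8 with the largest IR ratio in sgAAVS1 nuclei with DMSO and the 4 largest differences from the first intron each way were added. Up to 2 called each way came from each gene list. Some introns that these rules name are not reported here. Alternatives were DESeq2 1.42.0, TMM centring of depth against spliced reads, other filters, exact spliced reads, boundary reads, a replicate block, leaving out each replicate number, and subsets of introns or groups. Scripts were tested on simulated data. Counting error limits introns of low depth, and only that error falls with depth.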

Additional observations from a re-analysis of the deposited data

Results flagged for a closer look

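The sgERH effect on retention differed between CHX and DMSO, by the edgeR interaction test, in 20 last introns in the nucleus and 2 in the cytoplasm, and none of them passed without any one replicate number. Groups of 3 libraries were not tested for single libraries that lie apart.

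In nuclei the interaction, sgERH effect with CHX minus that with DMSO on the log2 scale, was −4.83 for RAD50, −3.49 for ZFYVE21, −3.28 for KCNAB3, −3.08 for SUV39H1, −2.72 for STT3B, −2.71 for MUC1, −2.12 for SETD6, −1.89 for TRNT1, −1.86 for HARS2 and −1.74 for HNRNPDL. It was −1.70 for USP8, −1.66 for EPN2, −1.56 for SMURF2, −1.56 for NCBP1, −1.48 for HSPA8, −1.42 for SHROOM1, −1.39 for NCL, −1.34 for DMTF1, −1.26 for SUPT5H and −1.15 for TCP1. The median over all last introns was −0.46. SMURF2, a ubiquitin ligase, had IR ratios of 0.223, 0.225 and 0.200 in sgERH nuclei with CHX, against 0.279, 0.282 and 0.336 in sgAAVS1, and with DMSO 0.280, 0.284 and 0.302 against 0.169, 0.181 and 0.177. HSPA8, the constitutive HSC70 chaperone, had 0.0361, 0.0387 and 0.0439 in sgERH with CHX, against 0.193, 0.156 and 0.174 in sgAAVS1, and with DMSO 0.129, 0.117 and 0.126 against 0.210, 0.201 and 0.213.

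In the cytoplasm the interaction was 1.24 for PTPN1 and 1.11 for ST6GALNAC4, a sialyltransferase. PTPN1 had 0.0953, 0.112 and 0.114 in sgERH with CHX, against 0.102, 0.0951 and 0.114 in sgAAVS1, and with DMSO 0.160, 0.172 and 0.138 against 0.270, 0.322 and 0.299. ST6GALNAC4 had 0.0179, 0.0202 and 0.0211 in sgERH with CHX, against 0.0113, 0.0113 and 0.0114 in sgAAVS1, and with DMSO 0.0515, 0.0537 and 0.0471 against 0.0598, 0.0658 and 0.0605. Both lost the call with DESeq2.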

How the results depend on the processing

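TMM centring, which takes out most of the median shift, gave 102 last introns higher and 62 lower in sgERH nuclei with DMSO, 147 and 140 with CHX, 44 lower in sgERH cytoplasm with DMSO and 12 lower with CHX, and left 3 nuclear interactions. In nuclei, the median over all introns after centring was 0.01 with DMSO, −0.15 with CHX and −0.17 for the interaction. DESeq2 gave 22 higher and 5 lower in cytoplasm with DMSO, 3 higher and 1 lower with CHX, and 5 and 31 for CHX against DMSO in sgAAVS1 cytoplasm. Boundary reads in place of depth gave 221 lower in nuclei with DMSO, 12 higher and 1142 lower with CHX, 11 higher in cytoplasm with CHX, 40 lower for CHX against DMSO in sgAAVS1 cytoplasm and 7 interactions, and exactly spliced reads also gave 7 interactions. Introns free of warnings in 6 or more libraries gave 1161 lower in nuclei with CHX, 16 higher in cytoplasm with DMSO, 7 and 3 in cytoplasm with CHX, and 5 and 37 for CHX against DMSO in sgAAVS1 cytoplasm, where fewer introns were tested. In cytoplasm with CHX, canonical last introns gave 4 lower and the fit of 2 groups gave 2 lower, and that fit gave 16 higher in nuclei with CHX.

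Leaving out each replicate number in turn gave 9 to 30 higher and 48 to 270 lower in nuclei with DMSO, 7 to 17 and 999 to 1247 with CHX, 17 to 20 and 6 to 7 in cytoplasm with DMSO, 0 to 4 and 0 to 2 with CHX, 95 to 186 and 217 to 380 for CHX against DMSO in sgAAVS1 nuclei, 4 to 8 and 29 to 31 in sgAAVS1 cytoplasm, 0 to 0 nuclear interactions, and 2 to 3 and 1 to 9 differences in effect between last and first intron.

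For that difference, the second intron as reference gave 42 lower. 3 alternatives chosen after seeing the data were the second to last intron as reference (34 and 37), canonical first and last introns (7 and 11), and those with exact reads (7 and 28). For the retention level, the counts were 864 and 615 with canonical introns and 809 and 727 with exact reads, while exact reads over all pairs gave 2180 lower and a median of −0.39, against 0.45. Directions also turned for introns that were not called, HSPA4L (0.31 with centring, 0.43 with boundary reads, −0.18 to 0.087 without a replicate number), JAK2 (−1.19 to 0.28 without one), PRPF19 (0.58) and PSMD3 (0.49) with boundary reads, ZC3H18 (−0.016 with centring, −0.079 to 0.24 without a replicate number) and MYBBP1A (−0.00404 with centring, −0.016 with boundary reads, −0.025 to 0.19 without a replicate number), and for RPL31 with exact reads (1.48). Apart from RPL31 and the level, whose denominators changed, the cause was not tested.

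Same-numbered libraries of 2 groups correlated at −0.0457 to 0.0828, so the replicate numbers were taken as names. With a replicate block the nuclear interactions numbered 12 in place of 20, and every other count of last introns stayed within 1.5 times.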
